A study of Mus musculus with 6 samples.

Results

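The 9 genes described here encode enzymes and enzyme subunits of the citric acid cycle: Cs, Idh3a, Idh3b, Idh3g, Ogdh, Dlst, Suclg1, Fh1 and Mdh2. They are named by gene symbol, with no threshold on a measured value, though earlier results of these data were known when the group was chosen, and all 9 were found among the 18720 rows of the deposited tables. The samples were 6 liver libraries from male C57BL/6 mice, 1 year old, that were put on a high-fat diet. In the HFD-R159 group (n = 3) the mice received R159 (a code name; what the compound is chemically is not given here), and in the HFD-Veh group (n = 3) they received vehicle, in both cases by intraperitoneal injection 2 times a week for 12 weeks. There was no group on a normal diet, so each comparison is between drug and vehicle on the same high-fat diet. Nothing in the labels ties each library to its own mouse, so the p-values describe the spread among these 6 libraries, part of which may be technical. Where livers are counted below, libraries are meant. The comparison asks which transcripts in the liver differ between mice given R159 and mice given vehicle.

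The citric acid cycle runs in the mitochondrial matrix. It oxidises the acetyl group of acetyl-CoA to carbon dioxide and passes the electrons, as NADH and reduced flavin, to the respiratory chain. In the liver the cycle is also a crossing point of synthesis: citrate leaves it for fatty acid and sterol synthesis, malate and oxaloacetate leave it for gluconeogenesis, and carbon from pyruvate and amino acids enters it. All of its enzymes are encoded in the nucleus and imported. Citrate synthase, the product of Cs, opens the cycle, the NAD-dependent isocitrate dehydrogenase built from the Idh3a, Idh3b and Idh3g products and the oxoglutarate dehydrogenase complex are its main oxidative control points, and fumarate hydratase and malate dehydrogenase close it.

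Ogdh fell in R159 livers and Fh1 rose, and the other 7 transcripts did not pass the test. Ogdh stood at 0.571 times its vehicle level and Fh1 at 1.64 times. The 9 log2 fold changes ran from -0.81 to 0.72, with 5 above and 4 below 0 and a median of 0.14, where the median of all tested genes was 0.00069. Of the 16594 genes tested, 27% were called by limma at a Benjamini-Hochberg adjusted p under 0.05 (12.8% higher and 14.2% lower in R159), so 1 member called higher and 1 called lower of 9 is a share near that background. Under 75th percentile scaling, which moved the median of all genes to 0.12, the split of the calls went from 2125 higher and 2354 lower to 2694 and 1693, and after rescaling without the 20 highest genes, which moved it to -0.11, to 1501 and 2494; Ogdh was called lower and Fh1 higher under both. With each library's trend with transcript length removed, 9.92% of 15934 genes were called higher and 8.16% lower (18.1% in all), and of the members again Fh1 and Ogdh. The median of the 9 was then -0.13, where that of all genes with a length was 0.0074, so the sign of the members' median depended on this setting. Values below are normalised estimated counts per gene, and fold changes are R159 minus vehicle on the log2(value + 1) scale.

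**Figure D1:**
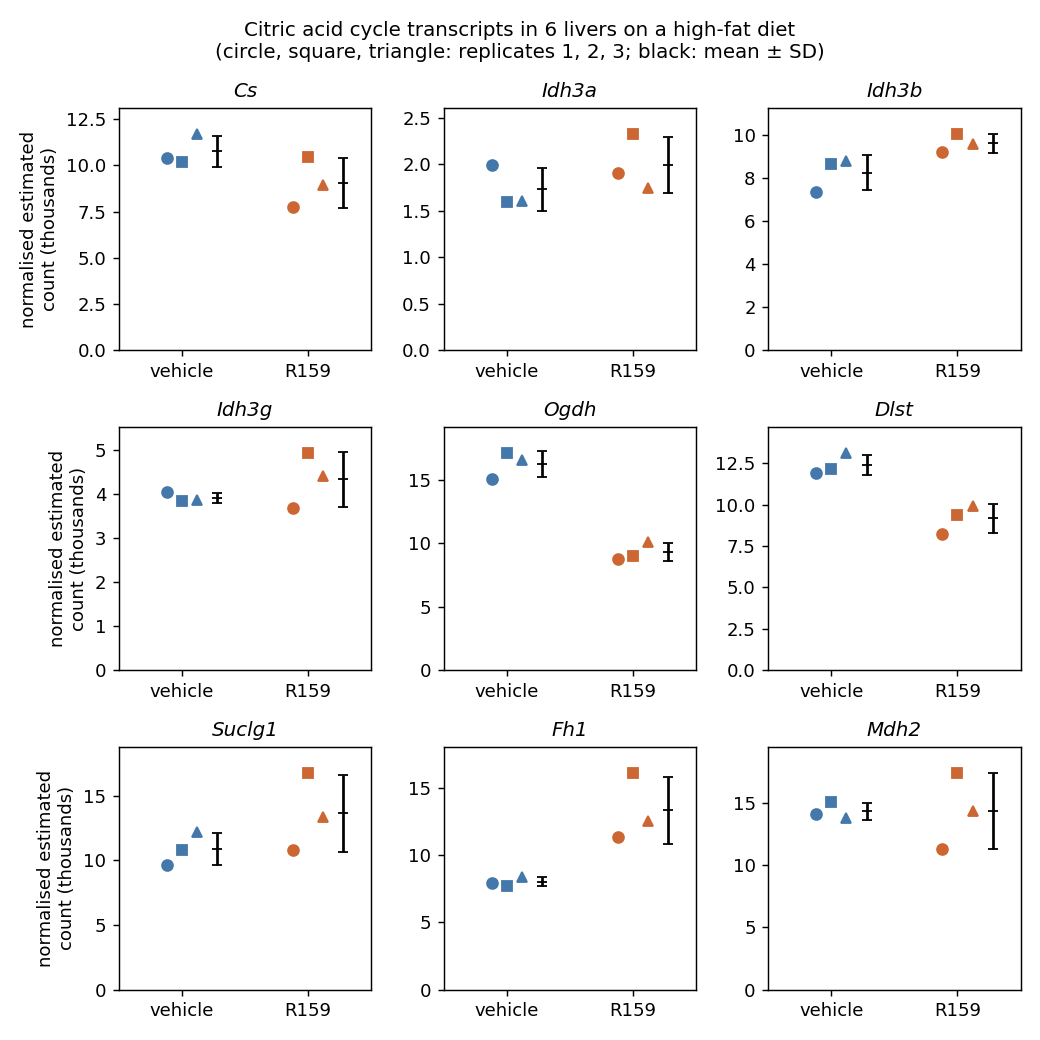
Normalised estimated counts (axes from 0, in units of 1000) of the 9 transcripts in the 3 vehicle and 3 R159 livers, 1 panel per gene in cycle order; symbols are replicates 1 to 3 and black bars are the mean ± SD. All 3 R159 livers lie below all 3 vehicle livers for Ogdh and Dlst and above them for Fh1 and Idh3b, and the groups overlap for the other 5 genes.

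The share of all tested genes with an unadjusted limma p under 0.05 was not computed, so nothing is read from the count of members under it. These members were Ogdh, Dlst and Fh1, of which Dlst was not called at the adjusted threshold. The start regions of these 3 are shown. They were matched by symbol to RefSeq windows of build GRCm38.p6, an earlier build than the mm39 of the processing notes, and run 5′ to 3′ on the gene's strand from 250 bases before the annotated start to 30 bases after it. Capitals mark matches, on either strand, to 3 short motifs: AAGGTCA, the core of the site of the oestrogen-related receptors, GCATGCG, the core of the NRF1 site, and ACTTCCG, the core of the site of ETS factors such as GABP, all regulators known for their action on mitochondrial genes. Ogdh has 6 annotated windows, of which the 2 shown, each the most upstream to hold its motif, were chosen for that.
Fh1, chr1:175625606-175625885, minus strand: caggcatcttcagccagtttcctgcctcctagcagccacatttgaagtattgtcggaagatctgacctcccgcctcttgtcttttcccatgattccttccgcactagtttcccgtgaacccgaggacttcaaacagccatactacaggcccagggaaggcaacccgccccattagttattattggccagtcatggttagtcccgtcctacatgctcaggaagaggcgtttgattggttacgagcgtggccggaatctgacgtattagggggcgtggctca
Dlst, chr12:85110583-85110862, plus strand: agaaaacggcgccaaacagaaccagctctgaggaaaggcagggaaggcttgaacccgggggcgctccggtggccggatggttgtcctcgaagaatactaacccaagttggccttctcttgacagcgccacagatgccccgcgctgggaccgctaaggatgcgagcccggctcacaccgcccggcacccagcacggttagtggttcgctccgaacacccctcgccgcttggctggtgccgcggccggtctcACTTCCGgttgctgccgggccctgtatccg
Ogdh window 4, chr11:6291920-6292199, plus strand: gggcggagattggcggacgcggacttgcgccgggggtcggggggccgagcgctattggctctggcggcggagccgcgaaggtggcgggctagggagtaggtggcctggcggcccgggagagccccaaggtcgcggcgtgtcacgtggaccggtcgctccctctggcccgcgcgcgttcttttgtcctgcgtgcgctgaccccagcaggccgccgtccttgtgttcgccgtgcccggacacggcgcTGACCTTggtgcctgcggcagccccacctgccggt
Ogdh window 5, chr11:6292308-6292587, plus strand: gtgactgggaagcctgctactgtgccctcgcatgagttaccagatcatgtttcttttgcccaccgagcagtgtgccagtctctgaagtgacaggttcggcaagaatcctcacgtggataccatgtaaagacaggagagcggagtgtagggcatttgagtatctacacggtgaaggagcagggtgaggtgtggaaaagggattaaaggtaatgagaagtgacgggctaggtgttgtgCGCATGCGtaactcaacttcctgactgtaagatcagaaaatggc

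The Fh1 window held no match to any of the 3 motifs. The Dlst window held 1 ETS core, which began at the annotated start itself. Window 4 of Ogdh held 1 receptor core 5 bases before its start, and window 5 held the NRF1 core in a palindrome that matches on both strands. Over the full windows of 300 bases, which reach 50 bases past the start, the receptor core was found in 4.72% of 32851 windows of all genes, the NRF1 core in 3.58% and the ETS core in 6.42%. Windows were found for 8 of the 9 members. Besides Ogdh and Dlst, 1 of the other members had a match, Mdh2 with 1 ETS core. The shares above are per window and per motif, and Ogdh had 6 windows where the other members found had 1 each. No share per gene was computed, so the count of members with a match has no background here. A match is a description of letters and not of a bound site.

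Ogdh encodes the E1 component of the oxoglutarate dehydrogenase complex, the thiamine-dependent decarboxylase that commits 2-oxoglutarate to succinyl-CoA. The R159 livers, replicates 1 to 3 in order here and below, measured 8735, 9002 and 10106, against 15084, 17083 and 16542 in the vehicle livers. The highest R159 liver lay well below the lowest vehicle liver. The mean fell from 16236 ± 1034 (SD, n = 3) to 9281 ± 727 (SD, n = 3), a log2 fold change of -0.81 (SE 0.15, 95% interval -1.15 to -0.46, limma adjusted p = 0.00756). Ogdh kept its call under each of the 18 other settings tried, with a log2 fold change of -0.92 to -0.49 and an adjusted p of 0.00358 to 0.0487. The value nearest 0 was reached when the trend of each library with transcript length was removed (-0.49, limma adjusted p = 0.0339). Ogdh has the longest transcript of the 9 (4127 nt), and of coding genes with a mean of at least 100 and within 20% of that length 27.4% were called lower and 6% higher.

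Dlst encodes the E2 component of the same complex, the lipoic acid-bearing succinyltransferase. It measured 8212, 9352 and 9913 in R159 and 11933, 12125 and 13101 in vehicle, so that its groups also did not overlap. The mean was 9159 ± 867 (SD, n = 3) in R159 and 12386 ± 626 (SD, n = 3) in vehicle. Its log2 fold change of -0.44 (SE 0.15, 95% interval -0.78 to -0.09) missed the threshold (limma adjusted p = 0.0602). It passed under quantile normalization (-0.55, adjusted p = 0.0155) and after rescaling without the 20 highest genes (-0.55, adjusted p = 0.0234), and under none of the other 16 settings, where the adjusted p was at most 0.182. Within a library the ratio of Dlst to Ogdh was 0.940, 1.04 and 0.981 in the R159 livers and 0.791, 0.710 and 0.792 in vehicle. Every R159 library held more Dlst relative to Ogdh than every vehicle library (1.29-fold between group means on the log scale, two-sided exact permutation p = 0.1, the smallest that 3 against 3 allows, and 0.175 adjusted over the 7 ratios compared). This log2 difference went from 0.37 to 0.15 with the length trend removed, still without overlap.

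Fh1 encodes fumarate hydratase, which adds water to fumarate to make malate and in mouse is found in mitochondria and, as a shorter form, in the cytosol. It measured 11311, 16118 and 12526 in R159 and 7948, 7710.2 and 8401 in vehicle. Every R159 liver lay above every vehicle liver, and R159 replicate 2 was the highest. The mean rose from 8019.8 ± 351 (SD, n = 3) to 13318 ± 2499 (SD, n = 3), a log2 fold change of 0.72 (SE 0.17, 95% interval 0.32 to 1.11, limma adjusted p = 0.0179). Without R159 replicate 2 the log2 fold change was 0.57 (adjusted p = 0.0348). Fh1 was not past the threshold when vehicle replicate 1, 2 or 3 was left out (limma adjusted p = 0.0607, 0.0837 and 0.0532), with log2 fold changes of 0.71, 0.69 and 0.75.

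The transcript length of Fh1 is 2636 nt, and of coding genes within 20% of it 9.32% were called higher and 13.9% lower. With the length trend removed its log2 fold change was 0.79 (limma adjusted p = 0.0106). Fh1 overlaps Kmo, a kynurenine pathway gene on the opposite strand, with no shared exonic bases in the reference used. Kmo ranged from 11720 to 13914 in R159 and from 12055 to 14762 in vehicle, so that its groups overlapped. The ratio of Fh1 to Ogdh, chosen after the values were seen and given without a test, was 1.29, 1.79 and 1.24 in the R159 livers and 0.527, 0.451 and 0.508 in the vehicle livers. Divided by transcript length, Fh1 was below Ogdh in each vehicle liver (2925 to 3187 against 3655 to 4139 per kb) and above it in each R159 liver (4291 to 6115 against 2116 to 2449 per kb).

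**Figure D2:**
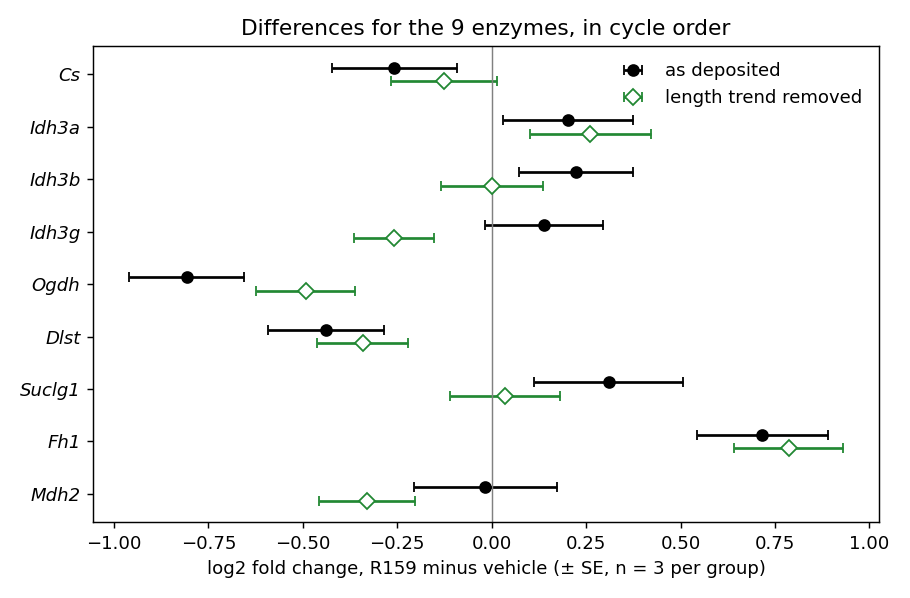
Log2 fold change (R159 minus vehicle, ± SE, n = 3 per group) of the 9 transcripts, in cycle order, on the deposited values (black circles) and after removal of each library's trend with transcript length (open green diamonds). Ogdh and Fh1 lie away from 0 under both; Idh3g moves from 0.14 to -0.26 and Mdh2 from -0.02 to -0.33.

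Citrate synthase opens the cycle by joining acetyl-CoA to oxaloacetate and is often used as a measure of mitochondrial content. Cs measured 7768, 10427 and 8948 in R159 and 10385, 10172 and 11715 in vehicle. R159 replicate 2 lay among the vehicle livers, and the other R159 livers lay below them. The log2 fold change was -0.26 (SE 0.17, 95% interval -0.63 to 0.12, limma adjusted p = 0.274). The lower end of this interval is a larger loss than that measured for Dlst, so a fall of Cs of that size was neither shown nor outside the interval.

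The NAD-dependent isocitrate dehydrogenase oxidises isocitrate to 2-oxoglutarate. Its alpha subunit, from Idh3a, is catalytic, and the beta and gamma subunits, from Idh3b and Idh3g, are structural and regulatory. Idh3a measured 1909.6, 2329 and 1746 in R159 and 1994, 1589.9 and 1609 in vehicle, with a log2 fold change of 0.20 (95% interval -0.19 to 0.59, limma adjusted p = 0.405). Idh3b measured 9208, 10083 and 9601 in R159 and 7351, 8669.9 and 8786 in vehicle. Its groups did not overlap, but the gap between the lowest R159 and the highest vehicle liver was small beside the spread within vehicle, and its log2 fold change of 0.22 (95% interval -0.12 to 0.56) was not past the threshold (limma adjusted p = 0.292). Idh3b shares 5 exonic bases with Nop56 on the opposite strand, a ribosomal RNA processing gene that measured 1566 to 2518 in R159 and 903 to 1145 in vehicle (log2 fold change 0.86, limma adjusted p = 0.0188). Idh3g measured 3678, 4917 and 4396 in R159 and 4029, 3824 and 3863.5 in vehicle, with a log2 fold change of 0.14 (95% interval -0.21 to 0.49, limma adjusted p = 0.528).

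Divided by transcript length, the 3 Idh3 subunits kept their order within every library, Idh3b above Idh3g above Idh3a. Their ratios to one another overlapped between the groups. In normalised counts the ratio of Idh3a to Idh3g was 0.519, 0.474 and 0.397 in the R159 livers and 0.495, 0.416 and 0.417 in vehicle, that of Idh3b to Idh3g was 2.50, 2.05 and 2.18 against 1.82, 2.27 and 2.27, and that of Idh3a to Idh3b was 0.207, 0.231 and 0.182 against 0.271, 0.183 and 0.183. The two-sided exact permutation p was 0.7, 0.7 and 0.8 for these ratios (0.8 each when adjusted over the 7 ratios). With the length trend removed the log2 fold change of Idh3g, the shortest of the 9 transcripts (1331 nt), turned from 0.14 to -0.26 (limma adjusted p = 0.121), and the log2 differences of the 3 ratios became 0.52, 0.26 and 0.26, with groups that no longer overlapped for the first and the second. Of coding genes within 20% of their length, 16% were called higher and 3.86% lower for Idh3b, and 22.5% and 1.89% for Idh3g.

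Suclg1 encodes the alpha subunit of succinyl-CoA ligase, which makes ATP or GTP from succinyl-CoA depending on its beta subunit, and is shared by both forms. Suclg1 measured 10830, 16772 and 13366 in R159 and 9649.7, 10829 and 12183 in vehicle. The groups overlapped, R159 replicate 1 lying beside vehicle replicate 2, and the log2 fold change of 0.31 (95% interval -0.14 to 0.76) was not past the threshold (limma adjusted p = 0.265). Sucla2, the beta subunit of the ATP form, was 5428 ± 315 in R159 and 7171 ± 924 in vehicle (SD, n = 3), and Suclg2, that of the GTP form, was 15202 ± 1924 and 20215 ± 1219.7, neither past the threshold (limma adjusted p = 0.0851 and 0.0926). The ratio of Suclg1 to Sucla2 was 2.06, 3.20 and 2.31 in the R159 livers and 1.49, 1.58 and 1.48 in vehicle, and that of Suclg1 to Suclg2 was 0.743, 0.966 and 0.978 in the R159 livers and 0.511, 0.508 and 0.596 in vehicle. In both pairs every R159 library held more alpha relative to beta transcript than every vehicle library (1.63-fold and 1.66-fold, two-sided exact permutation p = 0.1 each, the smallest possible with 3 against 3, and 0.175 adjusted over the 7 ratios). The alpha transcript is the shorter one (1519 nt against 2229 and 3367 nt). With the length trend removed the log2 difference went from 0.71 to 0.45 for the pair with Sucla2, and from 0.73 to 0.24, with overlapping groups, for the pair with Suclg2.

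Mdh2 encodes the mitochondrial malate dehydrogenase, which regenerates oxaloacetate and takes part in the malate-aspartate shuttle. It measured 11296, 17379 and 14290.3 in R159 and 14060.4, 15039.9 and 13739 in vehicle. The R159 livers spread on both sides of the vehicle livers, and the means were 14322 ± 3041 and 14279.8 ± 678 (SD, n = 3), a log2 fold change of -0.02 (95% interval -0.44 to 0.41, limma adjusted p = 0.958). With an interval this wide the data do not show that Mdh2 stayed the same. Its direction turned with the setting, to 0.11 under 75th percentile scaling and to 0.14 without R159 replicate 1 and to 0.02 without vehicle replicate 2, and with the length trend removed it was -0.33 (limma adjusted p = 0.104). The ratio of Mdh2 to Mdh1, the gene of the cytosolic enzyme, was 0.530, 0.528 and 0.430 in the R159 livers and 0.650, 0.608 and 0.545 in vehicle, with no overlap (two-sided exact permutation p = 0.1, adjusted 0.175). The log2 difference was -0.28, and it was -0.18 without R159 replicate 3 and -0.55 with the length trend removed. Mdh1 itself was 29165 ± 6798 in R159 and 23855 ± 1941 in vehicle (limma adjusted p = 0.388).

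**Figure D3:**
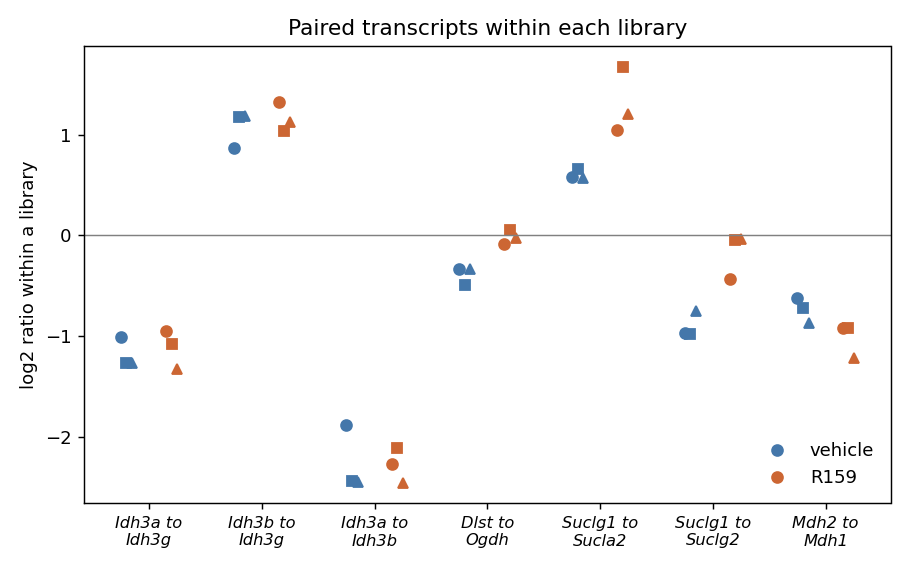
Log2 ratio of paired transcripts within each library (points are the 3 vehicle and 3 R159 livers; circle, square and triangle are replicates 1 to 3). The groups separate for Dlst to Ogdh, Suclg1 to Sucla2, Suclg1 to Suclg2 and Mdh2 to Mdh1, and overlap for the 3 pairs of Idh3 subunits. With the length trend removed (not drawn) they overlap for Suclg1 to Suclg2 and separate for Idh3a to Idh3g and Idh3b to Idh3g. Among single tested genes 46.2% separate, and the share among other gene pairs was not computed.

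Counted together, 4 of the 9 members had groups that did not overlap, 2 higher and 2 lower in R159, where 46.2% of all tested genes did so (22.5% higher and 23.6% lower). The summed value of the 9 was 72948 to 96379 in R159 and 82434 to 89939 in vehicle, with overlap. The two-sided exact permutation p for this sum was 0.8. As a share of all values in a library the 9 made up 0.124% to 0.131% in R159 and 0.150% to 0.156% in vehicle (two-sided exact permutation p = 0.1, the smallest possible). This share depends also on the total of all values, which was 55.6 to 73.7 M in R159 and 54.8 to 59.1 M in vehicle. The spread was wider in R159 than in vehicle for 7 of the 9 members. The same share over all tested genes was not computed, and across all genes R159 libraries were less alike than vehicle libraries. Nothing particular to the members is read from this count.

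Divided by transcript length, the levels in vehicle ran from Mdh2 (9808 ± 465 per kb, SD, n = 3) through Suclg1 (7167 ± 835) and Idh3b (5117 ± 493) to Dlst (4481 ± 227), Ogdh (3934 ± 251), Cs (3677 ± 286), Fh1 (3042 ± 133), Idh3g (2934 ± 81.6) and Idh3a (671 ± 88.4). Neighbouring levels from Ogdh to Cs and from Fh1 to Idh3g lay within their spread of each other, while Idh3a stood apart at the bottom. In R159 the first 3 places and the last were held by the same genes. Between them Fh1 went from place 7 to place 4 (5052 ± 948 per kb), and Ogdh from place 5 to place 8 (2249 ± 176 per kb). Dlst went from place 4 to 5 (3314 ± 314 per kb), Idh3g from 8 to 6 (3254 ± 467) and Cs from 6 to 7 (3092 ± 455). These last 3 levels in R159 lay within their spread of each other. Division by length leaves the fold changes as they were, so the length trend between the groups remains in these places.

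**Figure D4:**
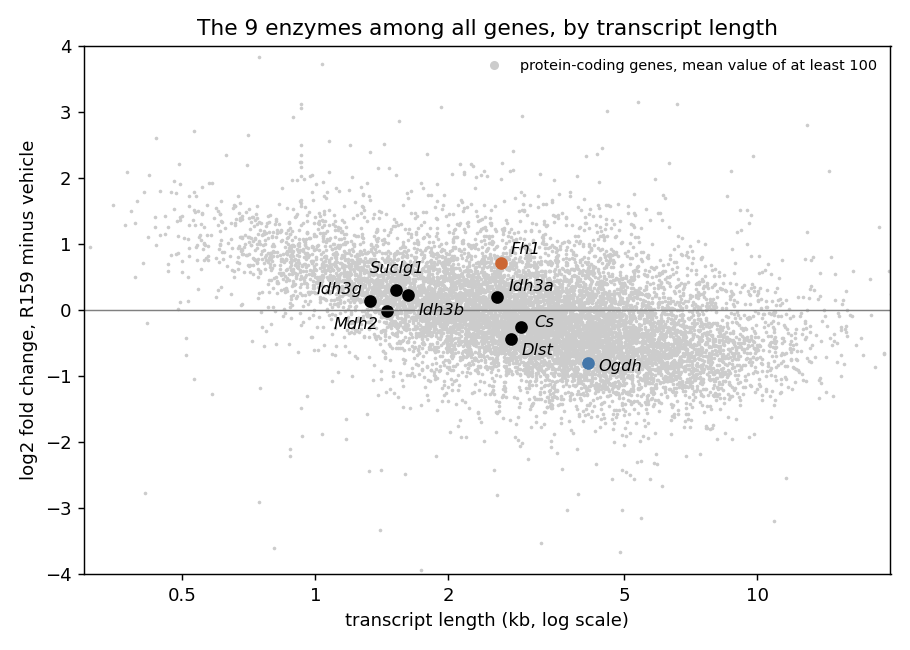
Log2 fold change (R159 minus vehicle, axis limited to -4 to 4) against transcript length (kb, log axis) for protein-coding genes whose mean value reached 100 (grey) and the 9 enzymes (orange, called higher; blue, called lower; black, not called). Shorter transcripts tend to lie higher (Spearman's rho = -0.50); Fh1 lies at 0.72 and 2636 nt, Ogdh at -0.81 and 4127 nt.

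Several library features moved with the groups, and their part in these results was not tested. Log2 fold change and transcript length ran in opposite directions over 11066 coding genes (Spearman's rho = -0.50, a description across genes that share the same 6 libraries). Estimated depth was 51.3 to 55.7 M reads in R159 and 66.0 to 76.7 M reads in vehicle. R159 libraries were less alike (Pearson's r 0.939 to 0.949 across genes) than vehicle libraries (0.979 to 0.986). Mitochondrially encoded genes held 8.42% to 13.6% of all values in R159 and 5.01% to 7.43% in vehicle. The 13.6% belonged to R159 replicate 2, which also had the most genes at 0 (973, against 202 to 519 in the other libraries). Spearman's rho between transcript length and a library's deviation from the mean was 0.017, -0.60 and -0.49 in R159 replicates 1 to 3. In vehicle it was 0.34 to 0.51. Hepatocyte markers were present in all libraries, all 10 of 10, with sums of 4889220 to 7990470 in R159 and 4145520 to 6148480 in vehicle. Of 7 erythroid markers 5 were called higher, and their sum was 40808 to 60039 in R159 and 12957 to 21877 in vehicle. These transcripts are short (median 703 nt), and with the length trend removed 1 of the 7 was called higher and their median log2 fold change went from 2.20 to 1.29. Of 7 skeletal muscle markers 2 had a row, with sums of 49.0 to 92.0 in R159 and 15.9 to 35.7 in vehicle. The other marker sums overlapped between the groups for adipocytes (3 of 7 with a row, 2977 to 8432 against 6241 to 9589), macrophages (7 of 7, 8078 to 10259.5 against 8149.8 to 13532), stellate cells (7 of 7, 13415 to 27984 against 13579 to 21069.8) and endothelium (7 of 7, 8093 to 9341 against 7202 to 9335), and not for pancreatic acini (3 of 7 with a row, 808 to 1613 against 397 to 699). Of the macrophage markers 2 were called lower, Adgre1 (log2 fold change -1.77, limma adjusted p = 0.00595) and Csf1r (-0.98, adjusted p = 0.00614). Marco (3.07, adjusted p = 0.0619) and Timd4 (2.09, adjusted p = 0.0872) had higher values in every R159 library and were not called. With the length trend removed Csf1r was not called (adjusted p = 0.0587), Adgre1 kept its call, and Cd68 was called lower (-1.16, adjusted p = 0.0109). Most of the acinar sum was Cela1 (789 to 1555 in R159 and 392 to 693 in vehicle). Cela1 and the muscle marker Mylpf were called higher (1.11 and 1.61, limma adjusted p = 0.0225 and 0.0243). Neither was called with the length trend removed (adjusted p = 0.151 and 0.248). Of the hepatocyte markers 1 was called higher and 2 lower, and of the stellate cell markers 1 was called lower. Fewer cells of a type and less RNA per cell cannot be told apart in pieces of whole liver.

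Among all tested genes 12.8% were called higher and 14.2% lower, the background of the list counts that follow. The other 9 listed genes of the cycle held 1 called higher and 2 called lower, with a median log2 fold change of -0.36. Sdha, the flavoprotein of succinate dehydrogenase, fell to 16922 ± 2418 from 33331 ± 4010 in vehicle (log2 fold change -0.98, SE 0.19, limma adjusted p = 0.0079). Sdhb, the iron-sulphur subunit of succinate dehydrogenase, rose from 7272.5 ± 614 to 12287 ± 3431 (0.72, SE 0.22, limma adjusted p = 0.0394). Sdhb has a short transcript (1142 nt) and was not called with the length trend removed (0.18, adjusted p = 0.423), while Sdha kept its call (-0.86, adjusted p = 0.0115). Sdhb was also not called without R159 replicate 2 or 3 or without any one vehicle replicate, and the list's calls lower went from 2 to 1 without any one vehicle replicate. Dld, the E3 component that completes the oxoglutarate complex with Ogdh and Dlst, had a log2 fold change of -0.28 (adjusted p = 0.188). Mrps36, whose small protein ties E3 to that complex, was higher (0.83, adjusted p = 0.0256; -0.14 and not called with the length trend removed, and not called without any one vehicle replicate).

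Pyruvate entry had 2 genes higher and 3 lower of 14 (1 lower without vehicle replicate 2 or 3, and 1 higher without vehicle replicate 1 or 2), with a median log2 fold change of -0.35. Both subunits of the mitochondrial pyruvate carrier rose, with log2 fold changes of 0.95 for Mpc1 and 1.16 for Mpc2 (limma adjusted p = 0.0191 and 0.00573), and neither was called with the length trend removed (adjusted p = 0.351 and 0.0541). Pcx, the pyruvate carboxylase that supplies oxaloacetate, fell from 50439 ± 4606 to 27016 ± 4706 (-0.91, SE 0.20, limma adjusted p = 0.0132; 0.0543 with the length trend removed). Pdpr, the regulatory subunit of pyruvate dehydrogenase phosphatase, fell from 895 ± 152 to 207 ± 177 (-2.42, SE 0.49, adjusted p = 0.00895). Of 15 genes that fill or drain the cycle, 1 was higher and 2 were lower (median -0.27). Mcee, the epimerase of methylmalonyl-CoA, rose by 1.60, and Gpt2 and Mmut, an alanine transaminase and methylmalonyl-CoA mutase, fell by 0.68 and 0.52 (limma adjusted p = 0.00563, 0.0229 and 0.0467). With the length trend removed Mcee was at 0.78 and still called, Gpt2 was not called (adjusted p = 0.0793), and Mmut had no length and was not tested. Without vehicle replicate 1, 2 or 3 neither Gpt2 nor Mmut was called.

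Of 11 genes for assembly of succinate dehydrogenase and for iron-sulphur clusters, 4 were higher and 1 was lower (median 0.51). Isca2 and Sdhaf4 rose by 0.96 and 1.09, and Nfs1, the cysteine desulphurase that starts cluster assembly, fell by 0.69 (limma adjusted p = 0.0055, 0.00825 and 0.00879). With the length trend removed the median of these 11 was 0.19, 2 were called higher and 1 lower, and Nfs1 kept its call while Isca2 and Sdhaf4 did not. Nfs1 was not called without vehicle replicate 2. Of 8 tested genes of lipoylation and of relatives of the oxoglutarate complex, limma called 1, Mrps36, which was higher. Of 8 cytosolic counterparts, Pck1, the gluconeogenic carboxykinase, rose by 0.86 and Aco1, the cytosolic aconitase, fell by 0.69 (limma adjusted p = 0.0391 and 0.0131). Pck1 was not called when any of the 6 libraries was left out, and Aco1 was not called without vehicle replicate 2 or 3 or with the length trend removed (-0.41, adjusted p = 0.0522). Among 13 regulators limma called 1, Gabpa, which was lower (-0.92, adjusted p = 0.0107) and encodes the DNA-binding subunit of GABP.

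Of 16 genes of mitochondrial membranes and import, 2 were higher, Tomm22 (0.68) and Timm23 (0.53), and 5 were lower, led by Mfn2, a fusion protein (-1.17), and Hspa9, the import chaperone (-0.99; limma adjusted p = 0.0249, 0.038, 0.00345 and 0.00803). Timm23 was at 0.017 with the length trend removed (adjusted p = 0.932), and the other 3 kept their calls. Neither Tomm22 nor Timm23 was called without R159 replicate 2 or 3 or without vehicle replicate 2 or 3. In this list 5 genes were called lower with all libraries, and 2 without vehicle replicate 2 or 3 and 3 without vehicle replicate 1. Of the 94 tested genes of these 8 lists, 12 were higher and 15 were lower, with a median log2 fold change of -0.09. With the length trend removed 7 were higher and 12 were lower, with a median of 0.0098. The background shares were 12.8% and 14.2% on the deposited values and 9.92% and 8.16% with the length trend removed, and nothing particular to these lists is read from their counts.

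**Figure D5:**
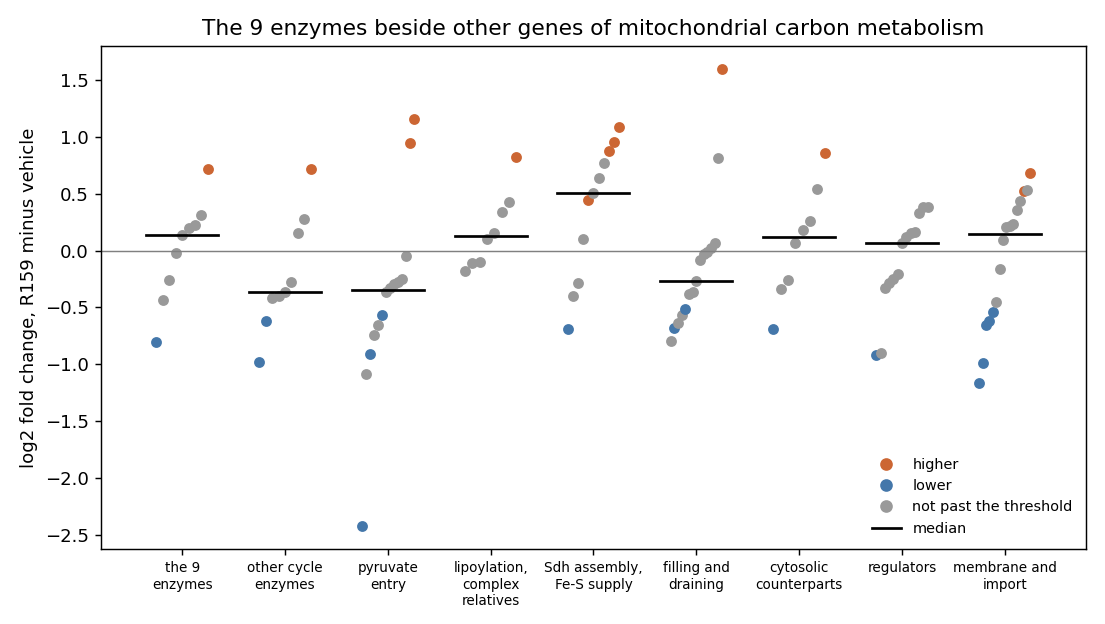
Log2 fold change (R159 minus vehicle) of the 9 enzymes and of the tested genes of 8 related lists, 1 point per gene (orange, called higher; blue, called lower; grey, not past the threshold; line, median). Medians run from -0.36 for the other cycle enzymes to 0.51 for assembly and iron-sulphur genes (0.19 with the length trend removed), and each list but those of lipoylation and regulators holds calls in both directions.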

How the data were processed

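Poly(A) RNA was made into stranded libraries with mixed random and oligo(dT) priming and read as pairs of 50 bases, per the labels' protocols. Named in the submitters' processing notes, without role or order, are STAR 2.7.8a, cutadapt, FastQC 0.11.9, R 4.2.3, DESeq2 (as 3.5) and the build mm39. Which counter and annotation were used, and whether counting used strand, is not given in the sources used here. The deposited values are a signal: estimated, fractional gene counts that the authors divided by 1 factor per sample. Low values fell on multiples of 1 step per library, which gave the estimated depth, but the share of values below 200 reads that came out whole to within 0.02 was 67.5% to 75.6%, so no count model was used. At this depth the spread between libraries, not counting error, sets the precision for the members.

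Genes with a mean of at least 10 were kept (16594; 2126 fell below), and all 9 members passed. limma 3.58.1 in R 4.3.3 was run on log2(value + 1) with an empirical Bayes trend, group as the only term and Benjamini-Hochberg adjustment over all genes at 0.05. Lists are described by counts and medians, without a set test. The members and lists were chosen with earlier results of these data known. Named besides the members were at most 2 called genes of smallest p per list and direction, the ratio partners and Dld. Some results under this rule are left out of the text. Transcript lengths are those of the longest coding transcript in GENCODE M21, an annotation of another build used for lengths and overlaps. Genes without a coding transcript took their longest transcript of any type. A length was found for 15934 tested genes (96.0%), and 13556 tested genes were coding. The length trend was a lowess curve (span 0.3) per library. Other settings were 75th percentile, quantile and top-20 rescaling, pseudocounts of 0.5 and 8, a filter at a mean of 50 or none, empirical Bayes without trend or robust, weights per sample, a threshold of 0.1, a replicate block, and each library left out. On simulated data for R159 against vehicle (16594 genes, 200 changed), limma called 61% of genes given a log2 change of 2 and 18% of those given 1. The 200 were drawn from tested genes at all levels, low ones included. They were a far smaller share than the 27% called in the measured data. These rates therefore do not describe how readily a change in the 9 members would be called. Plots were made in Python 3.11.15 (matplotlib 3.10.9).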

Additional observations from a re-analysis of the deposited data

How the results depend on the processing

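Ogdh kept its direction and call in all 18 other settings, and Fh1 its direction in all 18 and its call in 15, the exceptions being the 3 settings that leave out a vehicle library. With 1 library left out, members called higher ranged from 0 to 1 and members called lower from 1 to 1, genes called higher from 918 to 2516 and lower from 923 to 2909, and calls in the 8 lists from 5 to 18 higher and 5 to 15 lower. Members called lower rose to 2 (with Dlst) under quantile normalization, after rescaling without the 20 highest genes and at an adjusted p of 0.1. Without the empirical Bayes trend 1443 genes were lower, and the lists held 5 higher and 10 lower. With the transcript length trend removed 1301 genes were lower and the lists held 7 higher; this setting tested 15934 genes in place of 16594. Scaling moved the median of all genes to 0.123 (75th percentile) and -0.108 (without the 20 highest genes). Idh3g turned to -0.26 with the length trend removed. Mdh2 turned to 0.11 under 75th percentile scaling, and ranged from -0.17 to 0.14 with 1 library left out. The log2 difference in the ratio of Idh3a to Idh3b turned from -0.02 to 0.26 with the length trend removed; with 1 library left out it ranged from -0.12 to 0.17, that of Idh3a to Idh3g from -0.023 to 0.17 and that of Idh3b to Idh3g from -0.021 to 0.15. The cause was not tested. With the replicate block 1912 genes were higher and 2033 lower, 1 member was higher (Fh1, adjusted p = 0.0288) and 1 lower (Ogdh, adjusted p = 0.015), and the lists held 11 higher and 16 lower. Same-numbered libraries did not pair, with correlations of their deviations from the group means of -0.098, 0.031 and 0.11. With 3 libraries a group, changes of the size seen for Cs, Idh3a, Idh3b, Idh3g, Suclg1 and Mdh2 could not be told from none.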
